A study of Mus musculus with 20 samples.

Results

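Venous endothelial cells were studied in the interscapular brown adipose tissue (iBAT) of mice, and 282 such cells were found among 60538 Lin- cells that passed quality limits in 10 single-cell RNA-seq libraries. A cell was kept when mitochondrial genes gave under 10% of its counts, its total was under 15000 and it had at least 500 genes. It was then taken as venous when the summed counts of Pecam1, Cdh5 and Vwf reached 1, those of Ackr1, Selp and Sele reached 2, those of the arterial genes Stmn2, Sema3g, Gja5, Alox12 and Gkn3 stayed under 2, and those of Pdgfra and Ptprc, markers of stromal and immune cells, stayed under 1. The 282 cells were 3.65% of the 7729 endothelial cells. Of the other endothelial cells, 2012 passed the arterial gate, 24 passed both gates and 5411 passed neither; the last are called other endothelial cells here.

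Lin- cells are the stromal vascular cells that were left after magnetic removal of cells carrying immune lineage markers, and each library pooled the tissue of 3 to 4 mice aged 8 to 14 weeks. Male C57BL/6J mice lived at room temperature (RT, 24 °C), spent 4 days at 6 °C (COLD), or received 0.75 nmol per hour of CL316,243 by infusion over 4 days, an agonist of the β3-adrenergic receptor (CL), with 2 libraries in each group. Female Adrb1 fl/fl mice with Pdgfra-CreER -/- (WT) or Pdgfra-CreER +/- (KO), all given tamoxifen, were kept at RT or in the COLD, with 1 library in each group. The Cre removes Adrb1, the β1-adrenergic receptor gene, in cells that express Pdgfra, and venous cells had to hold under 1 corrected count of Pdgfra and Ptprc together. Adrb1 stood at 1.70 to 8.35 CPM (counts scaled to the same total in every class and library) in the Pdgfra+ cells of the C57 and WT libraries, at 0.409 CPM from 1 cell in KO RT and at 0 in KO COLD, where a count of 0 allows up to 0.524 CPM. In venous cells it was found in at most 1 cell of a library. There 3 counts came to between 20.7 CPM in KO RT and 168 CPM in C57 RT replicate 2, above the Pdgfra+ levels. A level in venous cells like that of the Pdgfra+ cells could thus not be told from none. The RT libraries of this line were made with version 3 of the 10x kit and all the others with version 2. The paper also states that this line's treatments were collected on different days. Kit, collection day and temperature therefore cannot be told apart within the Adrb1 line. The p-values below measure the spread between pooled libraries.

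Blood returns from capillaries through postcapillary venules and veins. Their endothelium is the main site at which leukocytes leave the blood: the selectins encoded by Selp and Sele catch rolling cells, VCAM1 and ICAM1 hold them, and ACKR1 carries chemokines across the vessel wall. Venous identity depends on the transcription factor NR2F2 and is marked by the receptor EPHB4, while capillaries of brown fat are specialised for taking up fatty acids that GPIHBP1-bound lipoprotein lipase releases.

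Every library held venous cells, between 13 in C57 RT replicate 2 and 34 in C57 COLD replicate 1. Their summed counts ran from 17901 in C57 RT replicate 2 to 145106 in KO RT, and no barcode was shared between libraries. The median total of a venous cell was 1.03 to 1.97 times that of the other endothelial cells of its library. It was 1.51 to 1.97 times in the RT libraries, 1.03 to 1.31 times in COLD, and 1.65 and 1.14 times in CL. The part of this difference in depth in the cold results below was not tested. The correction for free RNA that had been applied to the counts leaves a value of less than 1 for most single molecules, so in practice nearly every venous cell had at least 3 molecules of Ackr1, Selp and Sele together.

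**Figure D1:**
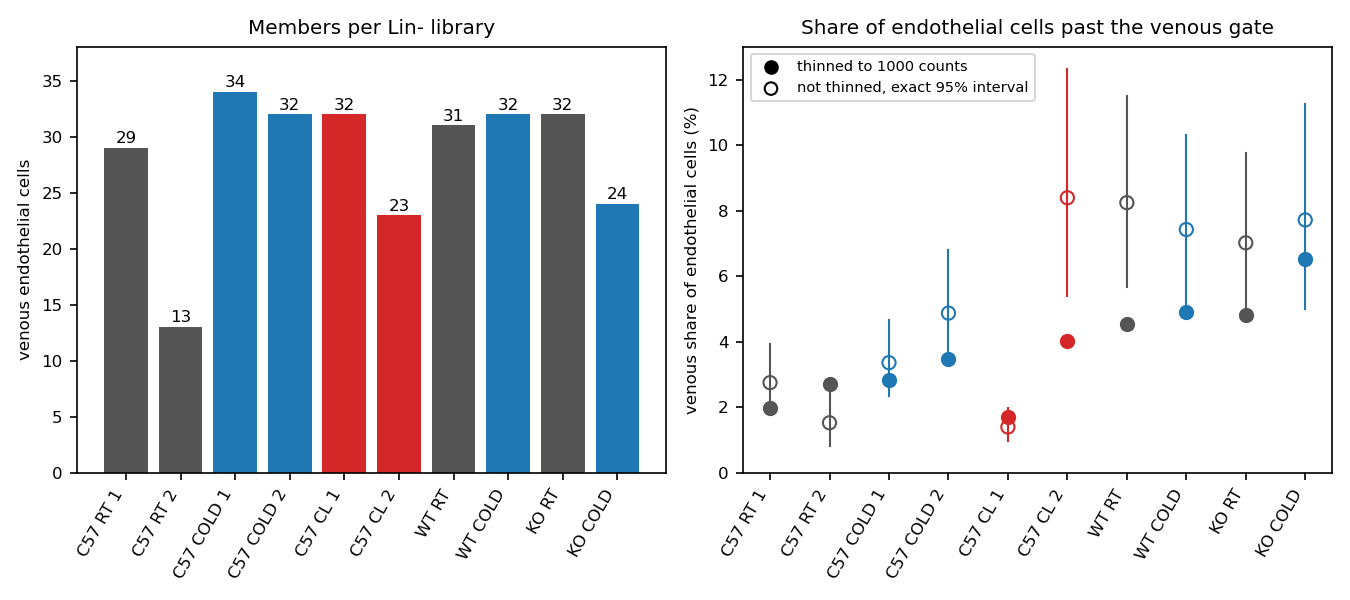
The left panel plots the number of venous cells in each of the 10 Lin- libraries (grey RT, blue COLD, red CL), from 13 to 34. The right panel plots their share of endothelial cells in percent, with open circles for all cells and their exact 95% interval and filled circles after thinning each cell to 1000 counts; RT, COLD and CL values overlap.

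The members differed in which markers carried them through the gate. Ackr1 and Selp without Sele were found in 134 cells (47.5%), all 3 genes in 51 (18.1%), Selp alone in 35, Ackr1 alone in 34, Selp with Sele in 21, Ackr1 with Sele in 5 and Sele alone in 2. The lowest marker sum among members was 2.00 and the highest 42.9, with 62 members between 2 and 3. Just outside the threshold the highest sum was 1.998, and 110 endothelial cells lay between 1 and 2. Among 12835 Pdgfra+ cells without detected Pecam1, Cdh5 or Vwf, which should lack Ackr1, Selp and Sele, 21 (0.164%) passed the venous threshold. Of the 7729 endothelial cells 306 (3.96%) passed it. Pdgfra+ cells with endothelial RNA were left out, so the share over all Pdgfra+ cells was not measured and may be higher. The median total of the 12835 Pdgfra+ cells, 1610 to 7075 counts by library, was above that of the endothelial cells, 1035 to 3169, in every library.

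Levels are given as CPM of the summed counts of a class of cells in a library. Ackr1 stood at 1632 and 2668 CPM in the C57 RT libraries, 1829 and 1559 CPM in COLD, 1227 and 1006 CPM in CL, 519 CPM in WT RT, 2149 CPM in WT COLD, 536 CPM in KO RT and 1895 CPM in KO COLD. It was lowest in the RT libraries of the Adrb1 line. Selp varied least, at 1157 ± 267 CPM (SD, n = 10 libraries). Sele was detected in 79 cells, with 0 CPM in C57 RT replicate 2 and the highest level, 599 CPM from 20 cells, in KO RT. Vwf, the carrier of clotting factor VIII stored in Weibel-Palade bodies, averaged 1510 ± 794 CPM in venous cells, 223 ± 185 CPM in other endothelial cells and 138 ± 98.6 CPM in arterial cells. These genes chose the cells, so their levels are a description only.

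The label was set beside lists of markers that the gate had not used. These lists were chosen with earlier results of these data known, so they describe the cells and are no independent check. The summed level of 20 venous identity genes was 10508 to 21117 CPM in venous cells and 2777 to 4406 CPM in other endothelial cells, with no overlap. The 14 pan-endothelial genes reached 2 counts in 281 of the 282 cells. The capillary list gave 2467 to 7157 CPM, with 2 or more counts in 253 cells, and the arterial list 1607 to 4301 CPM and 229 cells. The arterial list was above the level in other endothelial cells of the same library, 1132 to 2013 CPM, in all 10 libraries. Of its 7 genes tested between these classes Eln, Clu, Edn1 and Ltbp4 were higher and Efnb2, Sox17 and Fbln5 lower, against 11.6% higher and 11.5% lower of all genes (edgeR, adjusted p under 0.05). Of other cell types the lymphatic list gave 7.46 to 78.8 CPM, with Lyve1 in 1 cell and the lymphatic regulator Prox1 in 8, the Schwann cell list 0 to 18.2 CPM, the immune list 10.1 to 48.8 CPM, the platelet list 0 to 79.6 CPM and the erythroid list 0 to 18.0 CPM. The mural list, for pericytes and smooth muscle, gave 118 to 1428 CPM and 2 or more counts in 42 cells. The stromal list gave 0 to 10386 CPM, and 12 cells held 2 or more of its counts. In C57 COLD replicate 2, C57 CL replicate 1 and KO COLD a single cell gave 100%, 98.9% and 99.5% of that signal. The epithelial list gave 0 to 556 CPM, the highest in KO COLD, where 1 cell gave 93.9%. The adipocyte list gave 20607 to 40066 CPM and 2 or more counts in 273 cells, nearly all of it from Fabp4, which endothelial cells of fat are known to express and which stood at 20027 to 39692 CPM in venous and 16255 to 69024 CPM in other endothelial cells. In other endothelial cells, the comparison class below, the lymphatic list gave 73.5 to 8460 CPM, the erythroid list 2.62 to 11621 CPM and the epithelial list 0 to 3873 CPM. The pan-endothelial genes reached 2 counts in 95.7% of these cells, but in 80.3% in WT COLD and 85.0% in KO COLD. Of the same cells 9.94% held 2 or more stromal counts, with 22.7% in WT COLD and 21.1% in KO COLD.

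The question of what venous cells share beyond the markers that chose them was put to all genes by comparing venous with other endothelial cells within each of the 10 libraries (edgeR's quasi-likelihood test with library as a block, Benjamini-Hochberg adjustment; a gene is called at an adjusted p under 0.05). The 13 genes of the gate were left out, but the cells were chosen by their counts of markers, so the differences describe what else such cells share. Of 4735 genes tested, 1095 (23.1%) were called, 550 (11.6%) higher and 545 (11.5%) lower in venous cells. Fold changes are log2 values of venous against other endothelial cells with the standard error (SE).

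The most abundant of the genes that rose was Lrg1, a secreted glycoprotein that modulates TGF-β signalling in vessels. Its level in venous cells was 1848 and 5224 CPM in C57 RT, 5517 and 4649 CPM in COLD, 3096 and 2686 CPM in CL, 1258 CPM in WT RT, 5575 CPM in WT COLD, 996 CPM in KO RT and 5315 CPM in KO COLD, and it was found in 260 of the 282 cells. Other endothelial cells held 54.0 to 803 CPM, below the lowest venous library, and the log2 difference was 3.27 (SE 0.24, edgeR adjusted p = 8.18e-10). The plot of counts per cell shows Lrg1 in the great majority of cells of every library.

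Csf2rb2, a signalling subunit of the mouse interleukin-3 receptor, had the largest rise, from 12.4 ± 8.27 CPM to 188 ± 87.8 CPM (log2 3.94, SE 0.27, edgeR adjusted p = 3.74e-10). Hdc, which makes histamine, averaged 211 ± 108 CPM against 19.2 ± 12.2 CPM (log2 3.42, SE 0.24). Cysltr1, a receptor for cysteinyl leukotrienes, averaged 132 ± 71.1 CPM against 13.4 ± 7.43 CPM (log2 3.32, SE 0.26). Among the 282 cells Csf2rb2 was found in 99, Hdc in 78 and Cysltr1 in 81, so that these were not detected in most single cells at this depth.

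Vcam1, which binds leukocyte integrins, was the adhesion gene with the largest rise. Venous cells held 765 and 715 CPM in C57 RT, 1098 and 454 CPM in COLD, 173 and 342 CPM in CL, 679 and 530 CPM in WT RT and COLD, and 850 and 539 CPM in KO RT and COLD. Both CL libraries were below all the others, and other endothelial cells held 28.1 to 96.2 CPM in every library (log2 2.99, SE 0.22, edgeR adjusted p = 8.67e-10). Icam1 averaged 959 ± 429 CPM against 213 ± 56.0 CPM (log2 2.08). The remaining genes among the 12 with the largest rise were Tmem252 (3.28), the adhesion G protein-coupled receptor gene Adgrg6 (3.18), Ctnnal1 (3.13), Rnd1 (2.92), the junction gene Plekha7 (2.85), the Ras GTPase-activating gene Rasa4 (2.85) and the protein disulfide isomerase gene Pdia5 (2.81).

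**Figure D2:**
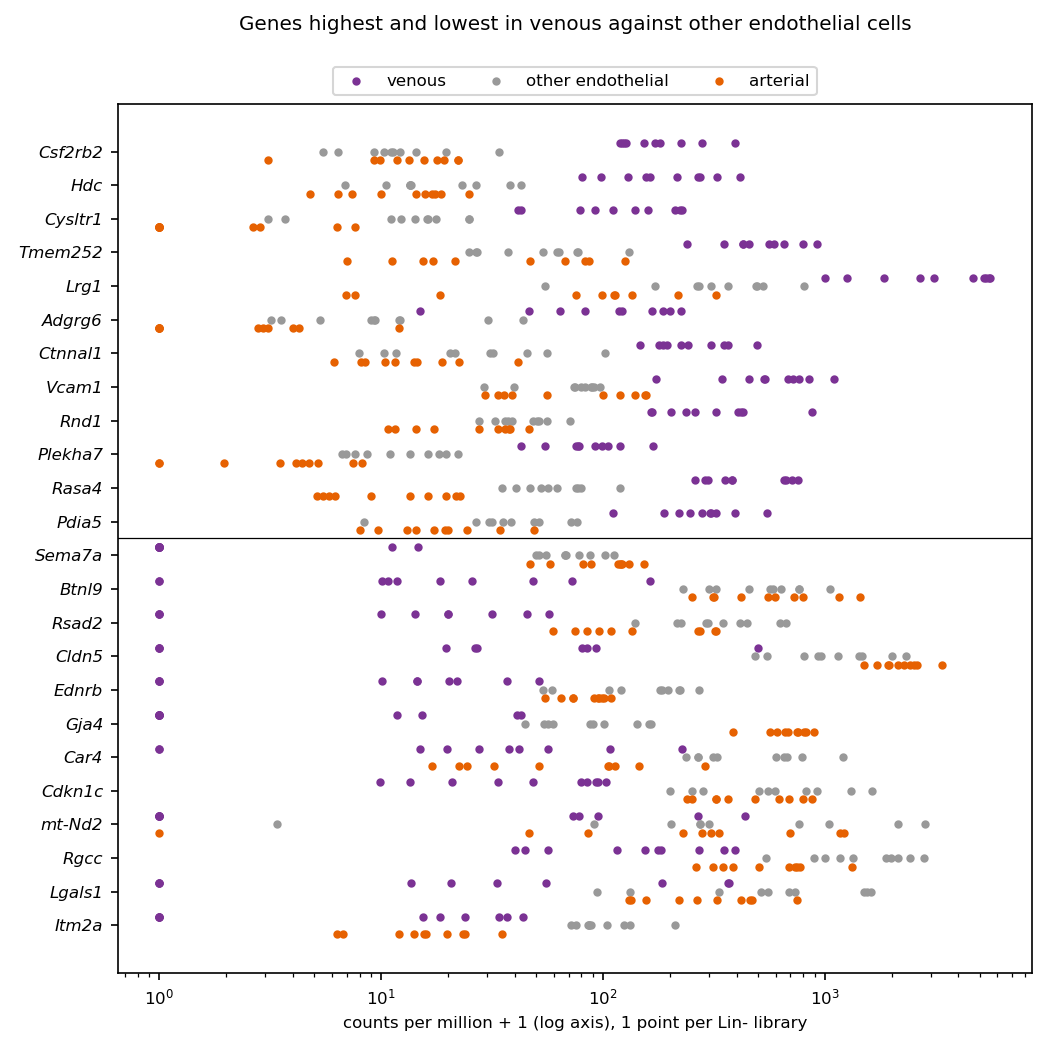
CPM plus 1 on a log axis for the 12 genes with the largest rise (top) and the 12 with the largest fall (bottom) in venous against other endothelial cells, 1 point per Lin- library (purple venous, grey other endothelial, orange arterial). Purple points lie mostly right of grey points in the upper rows, without overlap for Csf2rb2 and Hdc, and mostly left of them in the lower rows, with overlap for mt-Nd2 and with Cldn5 in 1 venous library at 498 CPM.

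Of the 12 genes with the largest fall 3 stand on the capillary list, Btnl9, Car4 and Rgcc. Cldn5, a tight junction protein, was at 25.4, 0, 0, 0, 498 and 25.9 CPM in the C57 RT, COLD and CL libraries in turn, and at 92.0, 18.6, 83.7 and 79.8 CPM in WT RT, WT COLD, KO RT and KO COLD. Only C57 CL replicate 1 came above 100 CPM, and other endothelial cells held 482 to 2310 CPM (log2 -4.12, SE 0.38, edgeR adjusted p = 2.51e-08). Car4, the carbonic anhydrase of the capillary surface, averaged 52.4 ± 68.2 CPM against 532 ± 312 CPM (log2 -3.32, SE 0.32). Btnl9 averaged 35.3 ± 49.8 CPM against 566 ± 254 CPM (log2 -4.27, SE 0.29), and Rgcc 177 ± 125 CPM against 1617 ± 733 CPM (log2 -3.14, SE 0.30). Sema7a, a membrane-anchored semaphorin, was found in 2 of the 282 cells (log2 -4.75). The others were the interferon-induced Rsad2 (-4.17), the endothelin receptor gene Ednrb (-3.63), the connexin gene Gja4 (-3.35), the cell cycle inhibitor gene Cdkn1c (-3.26), the mitochondrial mt-Nd2 (-3.22), the galectin gene Lgals1 (-3.11) and Itm2a (-2.95). The median mitochondrial share of a cell was 4.49% in other endothelial cells of WT RT and 5.33% in KO RT, against 0.461 and 0.171% in venous cells. It was 0.0373 against 0.0446% in KO COLD, and 0 in both classes of C57 RT replicate 2. In the remaining libraries it was higher in other endothelial cells. Its part in the mt-Nd2 difference was not tested. The rule that named these 2 sets of 12 took only genes with the same direction in all 10 libraries.

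Of the 20 venous identity genes, 17 were tested, 16 were higher and none lower, against 11.6% higher and 11.5% lower of all genes. Their median log2 difference was 1.96 against -0.05 over all genes. Among cells of 1000 to 4000 counts in both classes 16 of 17 were higher as well, with a median of 2.03, against 15.3% of all 2526 genes tested there. They included Il6st, the signal chain of interleukin-6 type receptors (log2 2.78), Ehd4 (2.76), Ptgs1, which starts prostanoid synthesis (2.70), the prostaglandin transporter Slco2a1 (2.63), the interleukin-1 receptor Il1r1 (1.96), Nr2f2 and Ephb4 (1.05). Nr2f2 averaged 399 ± 158 CPM against 135 ± 54.1 CPM. Of 12 capillary genes, 11 were tested, 9 were lower and 1, Meox2, was higher (log2 0.50), with a median of -2.69. Of the pan-endothelial list, 6 of 14 were higher, among them Plvap, the protein of endothelial diaphragms, at 3020 ± 871 CPM against 545 ± 171 CPM (log2 2.44), and 2 were lower, Cldn5 and the VEGF receptor Kdr (log2 -1.21).

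Lists of signalling and vessel function were read in the same way, against 11.6% higher and 11.5% lower of all 4735 genes tested. In the list of prostanoids and vascular tone 5 of 7 genes tested were higher, Ptgs1, Slco2a1, the vasoconstrictor endothelin gene Edn1 (log2 1.22), Ace (1.09) and the natriuretic peptide receptor Npr1 (1.02), and Ednrb was lower. Of 9 coagulation genes 4 were higher, the ADP-hydrolysing Entpd1 (2.42), Cd9 (1.45), the protein C receptor Procr (1.39) and thrombomodulin, Thbd (0.69), while tissue factor, F3, was lower (-1.32). Of 9 chemokine and cytokine genes 4 were higher, Il6 (2.17), Il33 (1.31), Cxcl16 (1.20) and Csf1 (1.13), and Cxcl12 was lower (-2.48). Il6 came from 50 of the 282 cells and was higher in 8 of 10 libraries. Without cells bearing other types' markers 3 genes of this list were tested, none was higher and Cxcl12 was lower, against 16.1% higher and 16.5% lower of all 2347 genes tested in those cells. Of 13 leukocyte adhesion genes only Vcam1, Icam1 and Cd34 (0.49) were higher, and Jam3 and Cd200 were lower.

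In the lipid handling list 3 of 9 genes tested were lower and 1 higher, with a median of -0.10. Over all genes 11.5% were lower and 11.6% higher. Gpihbp1 averaged 373 ± 274 CPM in venous cells against 2578 ± 1160 CPM (log2 -2.86), Lpl was lower by 2.32 and Angptl4 by 1.18 on the log2 scale, and Apoe was higher. Of 18 basement membrane and matrix genes 11 were lower, among them the collagen IV genes Col4a1 and Col4a2 and the laminins Lama4, Lamb1 and Lamc1, and Bgn was higher (log2 0.87). All 9 stromal markers tested were lower in venous cells, and the stromal list summed to 675 to 15149 CPM in other endothelial cells, so stromal RNA differed together with the matrix genes and its part in them was not tested. Without cells that held 2 or more counts of other types' markers, 4 matrix genes of 9 tested were lower and 2 higher, against 16.5 and 16.1% of all genes.

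**Figure D3:**
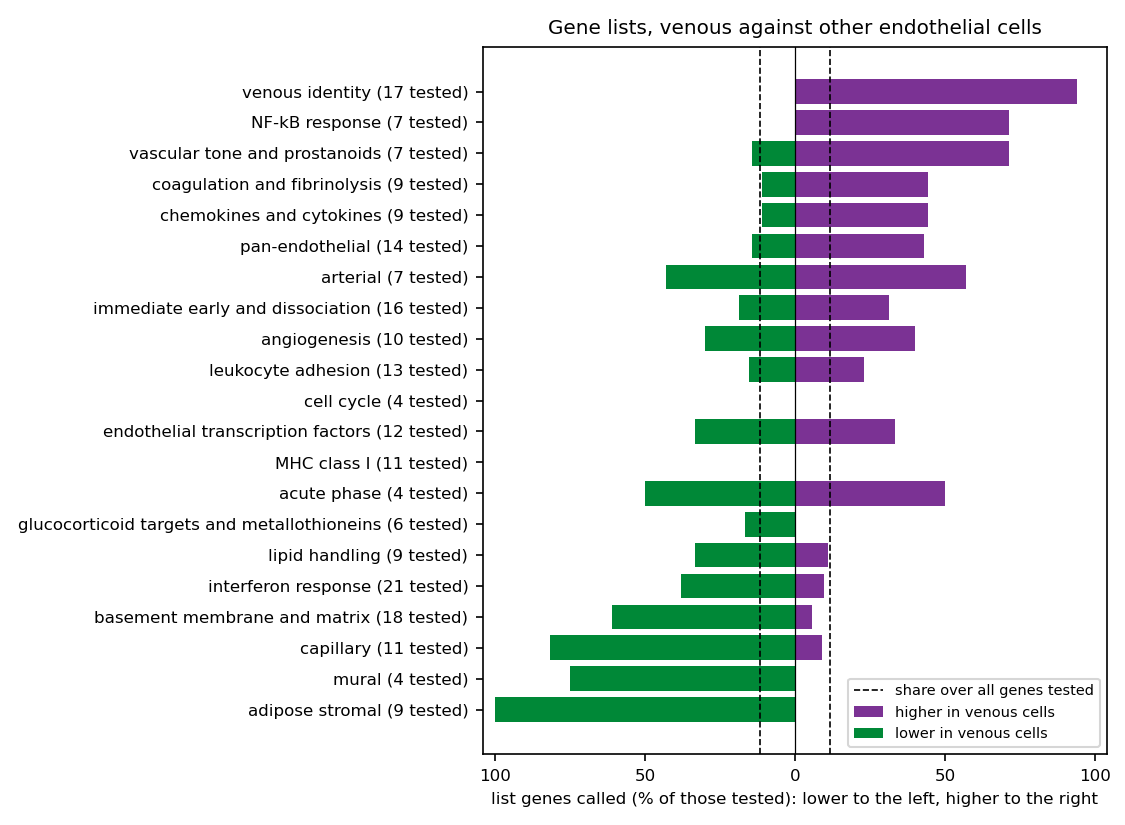
For each list with at least 4 tested genes, bars to the right give the percent of tested genes called higher and bars to the left the percent called lower in venous against other endothelial cells; dashed lines mark the shares over all genes, 11.6 and 11.5%. The venous identity, NF-kB and vascular tone lists reach furthest right, and the stromal, capillary and mural lists furthest left.

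NF-kB is the transcription factor that cytokine receptors activate in endothelium. Of its 14 listed response genes 7 were tested, 5 were higher in venous cells and none lower, with a median log2 difference of 0.87. The list was chosen with earlier results of these data known, and the cells by Ackr1, Selp and Sele. These counts therefore describe such cells and are no independent check, and the part of the gate in them was not tested. Over all genes 11.6% were higher and 11.5% lower. The inhibitor Nfkbia, which NF-kB induces as its own brake, averaged 1580 ± 576 CPM against 650 ± 78.4 CPM (log2 1.17, SE 0.16, edgeR adjusted p = 7.22e-06) and was higher in 10 of 10 libraries. Nfkbiz (1.48), Bcl3 (1.06), Socs3 (0.87) and Irf1 (0.72) were the others, with Bcl3 higher in 8 of 10. Among cells of 1000 to 4000 counts in both classes 4 of 5 tested were higher, against 15.3% of all genes. By contrast the interferon response list had 8 of 21 genes lower, Rsad2, Usp18, Isg15 (log2 -1.07), Ifit2, Ifit3, Irf7, Bst2 and Xaf1, and 2 higher, the interferon-γ-induced GTPases Igtp (0.77) and Gbp4 (0.69). Without cells bearing other types' markers no gene of this list was called higher and 6 of 15 were lower, against 16.1 and 16.5% of all genes. None of 11 MHC class I and 3 class II genes tested was called, at medians of -0.12 and 0.67. Immediate early genes, which tissue digestion can induce, had 5 of 16 higher, Ier3, Nr4a1, Atf3, Zfp36 and Klf4, and 3 lower, Hspa1a, Hspa1b and Jund. The shares over all genes were 11.6 and 11.5%. The immediate early genes moved beside the NF-kB list and their part in it was not tested.

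The 250 bases before the start of 2 of the called NF-kB genes are shown because they hold the letters that the factor is known to bind. The search was for the consensus κB site of NF-kB on both strands, and the match is in capitals in each gene's own direction, 5′ to 3′ (sequences from RefSeq on GRCm38.p6).
Nfkbia, chr12:55492648-55492897, minus strand: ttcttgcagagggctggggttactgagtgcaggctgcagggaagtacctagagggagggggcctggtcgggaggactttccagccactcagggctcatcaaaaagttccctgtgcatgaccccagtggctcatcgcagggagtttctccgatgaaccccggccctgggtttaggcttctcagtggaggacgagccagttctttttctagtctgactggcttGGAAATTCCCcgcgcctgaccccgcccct
Irf1, chr11:53769764-53770013, plus strand: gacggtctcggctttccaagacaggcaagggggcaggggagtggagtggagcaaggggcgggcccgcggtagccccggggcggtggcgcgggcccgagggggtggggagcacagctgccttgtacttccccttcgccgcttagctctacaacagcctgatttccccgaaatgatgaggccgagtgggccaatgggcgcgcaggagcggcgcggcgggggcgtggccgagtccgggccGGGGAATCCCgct
Irf1 has 2 entries in the promoter table, of which the one shown holds the match. The match begins 29 bases before the start in Nfkbia and 13 bases before it in Irf1. A match was held by 2 of the 4 called genes with an entry, as did 6 of the 11 listed genes with an entry and 1281 of all 32851 promoters (3.90%). Of the 3744 tested genes with an entry 5.77% held one. A match is a description of letters and not of binding.

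Venous cells were also set against the 2012 arterial cells of the same libraries, a comparison that was added after the data had been seen. Of 4320 genes tested, 1296 (30%) were called, 690 (16%) higher and 606 (14%) lower in venous cells. Lrg1 was again far higher, with 5.98 to 323 CPM in arterial cells (log2 5.51, SE 0.27). Aqp1, a water channel, separated the classes at high level, with 1954 to 4236 CPM in venous cells and 26.3 to 192 CPM in arterial cells (log2 5.05, SE 0.19, edgeR adjusted p = 8.11e-16). Fmo2, a flavin monooxygenase, averaged 720 ± 381 CPM against 18.5 ± 11.7 CPM (log2 5.29), and Aplnr, the apelin receptor, 191 ± 161 CPM against 13.4 ± 21.8 CPM (log2 4.02). All 17 venous identity genes tested were higher, with a median of 2.89 against -0.01 over all genes.

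Of the 12 arterial genes 10 were lower in venous cells and Eln, elastin, was higher, with a median of -2.77. Over all genes 14% were lower and 16% higher. The Notch target Hey1 averaged 306 ± 147 CPM in arterial cells and was found in 3 venous cells (log2 -6.03). Gja4 averaged 692 ± 148 CPM in arterial and 10.7 ± 16.7 CPM in venous cells (log2 -6.14), and Alpl, alkaline phosphatase, 286 ± 74.2 CPM against 3.12 ± 6.68 CPM (log2 -6.59). Nebl was at 142 to 419 CPM in arterial cells and at 0 in every venous library. Edn1, higher in venous than in other endothelial cells, was lower than in arterial cells, which held 461 ± 135 CPM against 157 ± 93.0 CPM. All 6 mural genes tested were lower, and the mural list summed to 2125 to 8066 CPM in arterial cells. Without cells with other types' markers 8 of 10 arterial genes were lower and 14 of 14 venous identity genes higher, against 19% lower and 21.9% higher of all 2074 genes tested.

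Whether venous cells answered cold was tested first in C57 mice, with 2 COLD and 2 RT libraries in a fit with the CL libraries. None of 1792 genes was called (0%), 101 had an unadjusted p under 0.05, DESeq2 called 0 as well, and the smallest adjusted p was 0.284. In simulated data of this size 60% of the genes given a 4-fold change were called. The spread between libraries was a fixed setting there, not estimated from these data. The share of real changes that would be called is not known. A fit of all 8 RT and COLD libraries, with the mouse line as a term, was listed as an alternative and then taken as a result of its own once the C57 result was known. It called 19 of 1880 genes (1.01%), 10 (0.532%) higher and 9 (0.479%) lower after cold, and DESeq2 also called 19, of which 12 were the same. With the C57 replicate experiments as a block, added later, 2 of the 19 were called and no other gene, Rbp7 (edgeR adjusted p = 0.00066) and Ankrd37 (adjusted p = 0.0118). The other 17 are described as called without that block. The Adrb1 libraries formed a single level of the block, so kit and collection day stayed tied to temperature there.

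Rbp7, a retinol-binding protein of fat and endothelial cells, had the smallest p. Venous cells of the RT libraries held 36.3 and 22.9 CPM in C57, 35.6 CPM in WT and 22.7 CPM in KO. After cold they held 570 and 620 CPM in C57, 336 CPM in WT and 405 CPM in KO, and after CL 288 and 107 CPM. The RT and COLD libraries did not overlap, and the CL values lay between them (log2 COLD against RT 3.80, SE 0.39, edgeR adjusted p = 6.71e-05). The level of C57 RT replicate 2 rests on less than 1 count and allows up to 206 CPM by its exact 95% counting interval, and that of CL replicate 2 came from 1 of 23 cells. In C57 alone the log2 difference was 4.12 with an edgeR adjusted p of 0.284.

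Rbp7 was far more abundant outside the venous cells, and there too its values were higher in COLD than at RT. In other endothelial cells it went from 507 and 1226 CPM to 1530 and 1621 CPM in C57, from 186 to 943 CPM in WT and from 388 to 632 CPM in KO. In arterial cells it went from 1949 and 2757 CPM to 3247 and 3049 CPM in C57, from 723 to 3114 CPM in WT and from 670 to 2461 CPM in KO. Neither of these was tested on its own. The test of a larger cold response in venous than in other endothelial cells of C57 mice gave a log2 difference of 2.95 (SE 0.80, edgeR adjusted p = 0.0844). The capillary list summed in venous cells to 2467, 4561, 3845 and 4867 CPM in the RT libraries of C57, WT and KO and to 7157, 5011, 5124 and 4505 CPM in the COLD libraries. In the same order the arterial list summed in venous cells to 2371, 2344, 2117 and 1626 CPM at RT. In COLD it came to 3399, 3569, 2758 and 4301 CPM, without overlap. The part of either list in the Rbp7 difference was not tested.

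Ankrd37, a gene known to be induced by hypoxia-inducible factor, was not found in the 42 venous cells of the C57 RT libraries. It stood at 185 CPM from 4 cells and 269 CPM from 15 cells in C57 COLD and at 67.5 CPM from 5 cells and 223 CPM from 10 cells in CL. In the Adrb1 line it went from 36.4 to 184 CPM in WT and from 6.89 to 255 CPM in KO (log2 3.87, SE 0.55, edgeR adjusted p = 0.00226 over the 8 libraries). Against the level of 3 counts over the C57 RT venous sums, it was at least 9.51-fold higher in COLD and at least 5.89-fold higher in CL. The venous sum of C57 RT replicate 2 was so small that 3 counts there came to 168 CPM, and a count of 0 in it says little. Outside the venous cells the level of Ankrd37 was lower, and its COLD values were also above those at RT. Other endothelial cells went from 11.8 and 12.2 CPM to 32.7 and 66.5 CPM in C57, from 0 to 33.9 CPM in WT and from 5.57 to 36.2 CPM in KO, and arterial cells from 7.72 to 19.4 CPM over the RT libraries to 30.2 to 41.8 CPM over the COLD libraries, with neither tested on its own. The test of a difference in cold response between venous and other endothelial cells of C57 mice gave an edgeR adjusted p of 0.297 for it.

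Ptprr, a phosphatase that acts on MAP kinases, was at 0 in both C57 RT libraries, at 239 and 316 CPM in COLD and at 0 and 67.3 CPM in CL. In WT it went from 9.05 to 154 CPM and in KO from 54.8 to 256 CPM (log2 3.19, SE 0.56, edgeR adjusted p = 0.0159). Other endothelial cells held 20.9 and 105 CPM in C57 RT and 73.7 and 99.0 CPM in C57 COLD, and Ptprr was among the genes whose cold response differed between venous and other endothelial cells (edgeR adjusted p = 0.0134). In C57 venous cells it was at least 11.5-fold higher in COLD, with 40.7 counts spread over 23 cells. Arterial cells held more Ptprr than venous cells in every library, 188 to 434 CPM. The arterial list in venous cells summed to 1626 to 2371 CPM at RT and 2758 to 4301 CPM in COLD. Its part in the Ptprr difference was not tested.

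**Figure D4:**
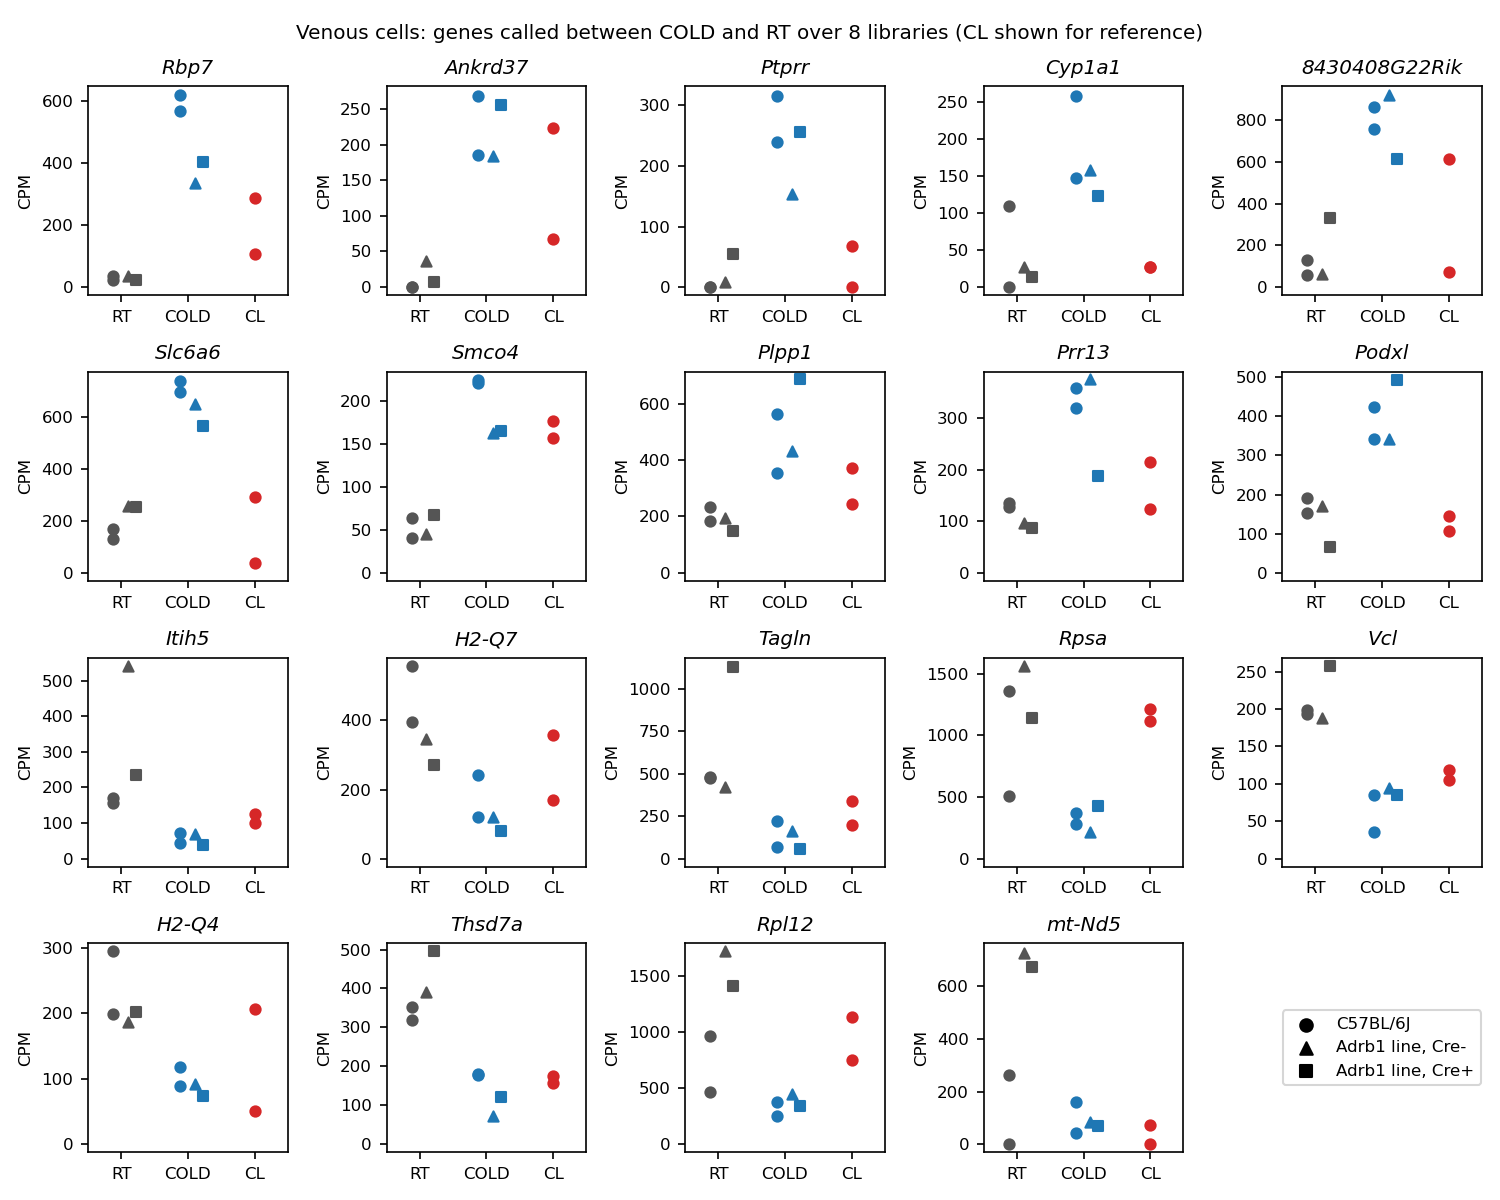
Venous CPM of the 19 genes called between COLD and RT over 8 libraries, with circles for C57BL/6J, triangles for WT and squares for KO; the y axis starts at 0 in each panel and the CL libraries, not in that test, are drawn beside them. RT and COLD points do not overlap in 18 of the 19 panels, mt-Nd5 being the exception, and Rbp7 rises from 22.7 to 36.3 CPM at RT to 336 to 620 CPM in COLD.

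The other genes that rose after cold were Cyp1a1, an oxidase induced through the aryl hydrocarbon receptor (log2 2.92), 8430408G22Rik (2.40), the taurine transporter Slc6a6 (1.59), Smco4 (1.49), the sialomucin gene Podxl (1.49), the lipid phosphatase gene Plpp1 (1.44) and Prr13 (1.42). Cyp1a1 came close to overlapping, with 109 CPM in C57 RT replicate 2 and 123 CPM in KO COLD, and it was found in 29 cells over all 10 libraries. In other endothelial cells of C57 mice it was at 46.2 and 97.9 CPM for RT and 308 and 287 CPM for COLD. There 8430408G22Rik, Slc6a6 and Plpp1 were also higher in both COLD libraries than in both RT libraries, while Smco4, Podxl and Prr13 were not. In other endothelial cells of the Adrb1 line Prr13 went from 107 to 216 CPM in WT and from 78.4 to 206 CPM in KO. Smco4, Podxl and Slc6a6 were higher in COLD in WT and lower in KO there. None of these was tested on its own. Slc6a6 was steadier, at 130 to 260 CPM over the RT libraries and 568 to 741 CPM over the COLD libraries, while the CL libraries held 293 and 38.9 CPM. Podxl was at 65.7 to 192 CPM at RT and 341 to 493 CPM in COLD, with CL at 146 and 107 CPM, inside the RT range. Arterial cells held more Slc6a6, Podxl and 8430408G22Rik than venous cells in every library. The arterial list in venous cells summed to 1626 to 2371 CPM at RT and 2758 to 4301 CPM in COLD, and its part in these differences was not tested.

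Among the 9 genes that fell, 2 belong to the list of 11 MHC class I genes, of which 10 were tested and none was called higher, against 0.481% of all genes called lower and 0.534% higher. H2-Q7 went from 558 and 395 CPM to 241 and 121 CPM in C57, from 348 to 119 CPM in WT and from 270 to 78.9 CPM in KO (log2 -1.62, SE 0.32, edgeR adjusted p = 0.034). H2-Q4 went from 186 to 295 CPM over the RT libraries to 73.4 to 119 CPM over the COLD libraries (log2 -1.35). Other endothelial cells of C57 mice also held less of both genes in COLD. H2-Q7 was at 319 and 277 CPM for RT and 233 and 198 CPM for COLD there, and H2-Q4 at 318 and 272 against 148 and 114 CPM. In the Adrb1 line H2-Q7 of other endothelial cells went from 269 to 122 CPM in WT and from 267 to 222 CPM in KO. In arterial cells it went from 324 and 229 to 210 and 113 CPM in C57, from 338 to 83.7 CPM in WT and from 261 to 99.5 CPM in KO. H2-Q4 was lower in COLD in each of these as well, and none was tested on its own. H2-Q7 and H2-Q4 belong to a family of near-identical copies, so reads of the members may have been exchanged between them. The median of the list was -0.33 against 0.02 over all genes.

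Tagln, an actin-binding protein of contractile cells, went from 479 and 477 CPM to 70.5 and 222 CPM in C57, from 424 to 160 CPM in WT and from 1130 to 57.5 CPM in KO (log2 -2.26, SE 0.46). The mural list, in which Tagln stands, summed to 471 to 1428 CPM at RT and 118 to 949 CPM in COLD with overlap, and 12 of the 32 venous cells of KO RT held 2 or more of its counts; its part in the Tagln difference was not tested. Vcl, vinculin, fell by 1.48 on the log2 scale, in C57 from 193 and 198 CPM to 35.8 and 84.4 CPM. Itih5, a protein that binds hyaluronan, went from 171 and 155 CPM to 73.2 and 43.8 CPM in C57, and from 540 to 68.0 CPM in WT and 234 to 39.6 CPM in KO (log2 -2.35). Thsd7a, higher in venous cells than in other endothelial cells of every library, went from 319 to 495 CPM at RT to 71.9 to 180 CPM in COLD (log2 -1.60). In other endothelial cells of C57 mice the RT and COLD values of Tagln, Vcl, Itih5 and Thsd7a overlapped. In those of the Adrb1 line Vcl went from 129 to 69.0 CPM in WT and from 131 to 87.8 CPM in KO. Thsd7a went from 101 to 34.8 CPM and from 72.1 to 34.6 CPM, and Itih5 from 138 to 127 CPM and from 200 to 129 CPM. Tagln went from 379 to 165 CPM in WT and rose from 51.1 to 91.7 CPM in KO. In arterial cells Tagln went from 611 and 1283 CPM to 429 and 622 CPM in C57, from 958 to 478 CPM in WT and from 1194 to 576 CPM in KO. Arterial Vcl went from 65.5 and 165 CPM to 88.0 and 72.2 CPM in C57. It went from 162 to 65.4 CPM in WT and from 231 to 78.2 CPM in KO. None of these was tested on its own.

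The ribosomal genes Rpsa (log2 -1.92) and Rpl12 (-1.69), which have near-identical pseudogenes and are uncertain for that reason, and the mitochondrial mt-Nd5 (-2.37) were the last of those that fell. In C57 the levels of Rpl12, 962 and 470 CPM for RT against 253 and 378 CPM for COLD, lay closer together than in the Adrb1 line, where WT and KO RT held 1717 and 1406 CPM and COLD 446 and 344 CPM. In C57 mt-Nd5 gave 264 and 0 CPM for RT and 162 and 42.4 CPM for COLD, which overlap, and at 726 and 672 CPM in the RT libraries of the Adrb1 line made with the other kit. The kit, the collection day and the temperature changed together in that line. In other endothelial cells of C57 mice the RT and COLD values of Rpsa, Rpl12 and mt-Nd5 overlapped. In those of the Adrb1 line mt-Nd5 went from 882 to 82.9 CPM in WT and from 976 to 97.6 CPM in KO. Rpsa went there from 1330 to 912 CPM and from 1097 to 888 CPM, and Rpl12 from 1122 to 831 CPM and from 1049 to 771 CPM. In arterial cells Rpsa went from 600 and 118 CPM to 232 and 165 CPM in C57, from 1167 to 182 CPM in WT and from 979 to 202 CPM in KO, not tested on its own.

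The 19 genes went the same way in the WT and in the KO pair, 19 of 19 each, and in the C57 pairs of replicate 1 and replicate 2 in 19 and 18 of 19. The 4 pairs made the test, so these counts describe the calls and do not check them, and with 1 library per genotype and temperature no difference between WT and KO was tested. Groups did not overlap for 18 of the 19 genes and for 7.98% of all 1880 genes tested, and the same test chose the 19. In C57 mice Ptprr and Tagln alone of the 19 had a COLD response called different from that of other endothelial cells, against 0.244% of all 7387 genes. With the replicate block Tagln was not called (edgeR adjusted p = 0.275). No gene of the venous identity list (17 tested), the NF-kB list (5), the interferon list (11) or the chemokine list (4) was called after cold, and with 1.01% of all genes called such counts do not set these lists apart. With the gate on Ackr1 alone, which left fewer cells, 10 of the 19 were tested and none was called, and leaving out single libraries left between 2 and 30 calls, with 2 without C57 RT replicate 1 or without KO COLD and 3 without WT COLD. Rbp7 was called in each of the 16 alternatives in which it was tested and Ankrd37 in each of 15.

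CL was compared with RT in the same C57 fit, with the same RT libraries as in the COLD comparison. The 1 gene called of 1792 (0.0558%) was Car3, a carbonic anhydrase of adipocytes. Car3 was at 0 in both RT libraries and at 934 and 1068 CPM in CL, which came from 3 and 2 cells, a single cell giving 96% and 99% of the counts. Car3 had also been used to set the correction for free RNA. With the replicate experiment as a block it was not called (edgeR adjusted p = 0.492), nor was any other gene. With Car3, 105 genes had an unadjusted p under 0.05, and DESeq2 called 1. Igtp, chosen for mention after its values were seen, held 298 and 743 CPM in the RT libraries against 36.6 and 66.0 CPM in the CL libraries and did not pass the test (log2 -2.89, edgeR adjusted p = 0.351).

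A fit of venous and other endothelial cells together tested whether the responses of C57 mice differed between the classes. The COLD response differed for 18 of 7387 genes (0.244%), 6 higher (0.0812%) and 12 lower (0.162%), and the CL response for 24 (0.325%), 17 higher (0.23%) and 7 lower (0.0948%), with 431 and 463 genes in turn at an unadjusted p under 0.05, while DESeq2 called 1 and 2. In 9 of the 18 and 12 of the 24 a single cell gave most of the venous counts. With the replicate experiment as a block 6 genes were called for COLD and 13 for CL, with Ptprr (edgeR adjusted p = 0.0289), Vcam1 (0.0413) and Aplnr (0.0268) among them. Among those spread over more cells, Vcam1 was lower in venous cells after CL relative to other endothelial cells (log2 -2.07) and Aplnr higher, from 85.5 and 51.1 CPM in the RT libraries to 619 and 175 CPM in the CL libraries (log2 2.41, edgeR adjusted p = 0.025).

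**Figure D5:**
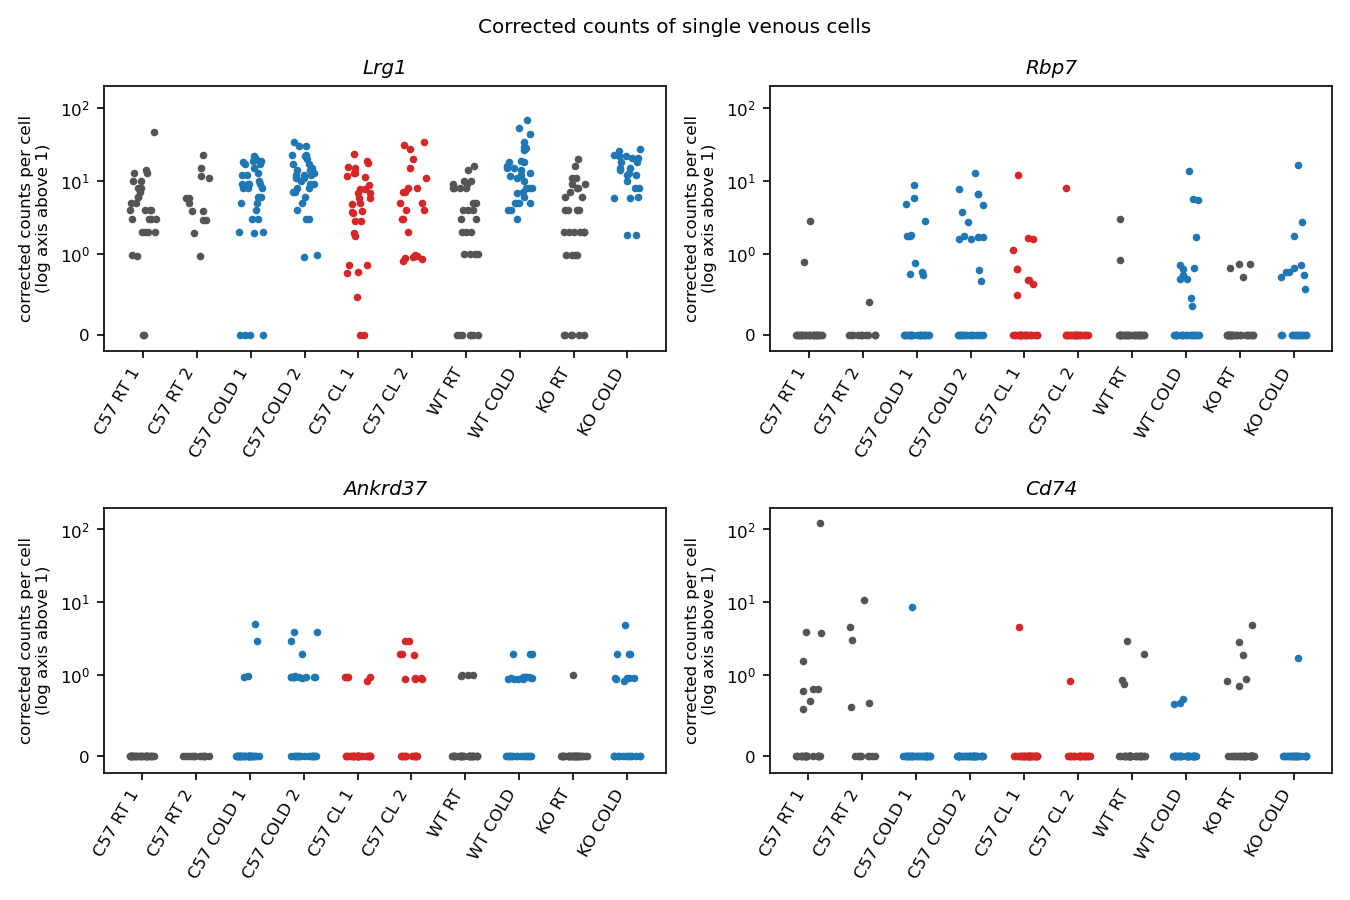
Corrected counts of Lrg1, Rbp7, Ankrd37 and Cd74 in single venous cells of each library, linear up to 1 and on a log axis above it (grey RT, blue COLD, red CL). Lrg1 is spread over nearly all cells, Ankrd37 over 4 to 15 cells in each COLD library, and Cd74 in C57 RT replicate 1 comes mostly from 1 cell.

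The share of endothelial cells that passed the venous gate was compared after each cell had been thinned to 1000 counts, because the gate depends on depth; 1789 of 7729 endothelial cells had fewer and were left out. The whole gate was applied again after thinning, so cells whose Pdgfra or Ptprc counts were thinned away could enter. Values were also rounded to whole numbers before thinning, so 2 molecules of Ackr1, Selp and Sele could pass. The unthinned gate needed 3 in practice, so thinned and unthinned shares rest on different gates. C57 RT replicate 2 held 14.2 venous cells on average after thinning and 13 before. The C57 libraries gave 1.96 and 2.70% for RT, 2.82 and 3.47% for COLD and 1.68 and 4.01% for CL. They were 4.54% in WT RT, 4.90% in WT COLD, 4.82% in KO RT and 6.51% in KO COLD. Over both lines COLD libraries had 4.43 ± 1.64% (SD, n = 4) and RT libraries 3.50 ± 1.39% (n = 4), a difference of 0.92 percentage points (exact permutation test, two-sided, p = 0.429). Shares differed by line, and within each line both COLD libraries were above both RT libraries; with labels permuted within lines the exact p was 0.0556, the smallest that this design allows. With the cells of the unthinned endothelial gate only, the means were 5.18 and 3.81% (exact permutation p = 0.371, and 0.0556 within lines). With the whole gate applied after thinning to 1000 counts, the difference was 0.82 percentage points within C57 and 1.03 within the Adrb1 line. Each had p = 0.333 in the exact test, the smallest that 2 against 2 allows. The CL difference was 0.52 percentage points (exact p = 1), and it was 2.76 without thinning, 1.38 after thinning to 1500 counts and 1.09 with the cells of the unthinned gate only, each with an exact permutation p of 1. Without thinning the COLD libraries averaged 5.84% and the RT libraries 4.88% (exact permutation p = 0.629).

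The direction of the cold difference over both lines depended on the setting. It was -0.657 percentage points with the gate thresholds lowered by 0.5 and no thinning, against 0.96 with no thinning alone, and -0.0436 after thinning to 1500 counts. With the lowered gate and at 1500 counts it was 0.73 and 1.15 within C57 and -2.04 and -1.24 within the Adrb1 line. Kit, collection day and temperature changed together in that line. With Ackr1 alone in the gate COLD libraries had 2.87% and RT libraries 1.40% (exact permutation p = 0.0286, the smallest that 4 against 4 allows). With the labels permuted within lines the exact p was 0.0556, the smallest that this scheme allows. Without thinning and rounding, Ackr1 alone in the gate gave an exact permutation p of 0.143 over both lines. Ackr1 itself was lowest in the kit version 3 libraries at RT. The parts of kit, collection day and temperature in this share cannot be told apart in the Adrb1 line. In C57 alone the thinned Ackr1 shares averaged 2.05% in COLD and 1.51% at RT (exact p = 0.333).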

How the data were processed

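Single cells of iBAT were measured in 20 droplet libraries, 10 Lin- and 10 Lin+, of which the Lin- libraries were analysed and the Lin+ cells only counted. The deposited values are expected counts per gene and cell, not whole numbers: the authors aligned and counted reads with Cell Ranger 3.0.1 on mm10 and removed cell-free RNA with SoupX, using Fabp4 and Car3 as genes that the cells do not express, which lowers weak signals and can shift those genes most. The files hold no columns of the authors' comparisons, and 31053 genes are listed.

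Cells were kept at under 10% mitochondrial counts, under 15000 counts and at least 500 genes (the study used 100, tried as an alternative). The members and the 31 gene lists were chosen with earlier results of these data known. Counts were summed per library and class, rounded to whole numbers and tested with edgeR 4.0.16 (quasi-likelihood, R 4.3.3) after its filter on low counts and TMM scaling, with an adjusted p under 0.05 as the threshold; DESeq2 1.42.0 was an alternative. CPM values are counts divided by the total of the class in its library and scaled to 1e+06, from unrounded sums. Named genes were the 12 called genes with the largest change in each direction with a mean of at least 10 CPM in a group or class and no overlap between groups (for classes, the same direction in all 10 libraries), plus genes of the lists; for cold over both lines mt-Nd5, which overlaps, was named outside this rule. The scripts were tested on simulated data with a fixed spread between libraries, not estimated from these data. For COLD against RT in C57 60% of 4-fold changes were recovered over 1752 genes. Shares were compared by exact permutation tests after rounding counts to whole numbers and thinning cells to 1000 counts (50 draws). Floors are 3 counts, and intervals are exact at 95%; both cover counting error only. No doublet caller was run; cells of high total were left out as an alternative. Other alternatives changed the gate, the scaling, the filter, the replicate block and single libraries. Promoters came from RefSeq and were searched for the κB consensus of NF-kB.

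The study's methods tie the C57 replicate number to an experiment, so same-numbered libraries were taken as paired and a fit with the experiment as a block is given where it changes a call. The pairing was also checked by the correlation of their deviations from the group means over 1792 genes, which was -0.103 for RT and COLD, -0.115 for RT and CL and 0.261 for COLD and CL.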

Additional observations from a re-analysis of the deposited data

Results flagged for a closer look

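The responses of venous and other endothelial cells of C57 mice differed by the interaction test for 18 genes in COLD and 24 in CL (edgeR, adjusted p under 0.05). Values are log2 differences of the venous response minus that of other endothelial cells, and where a group held no counts the fitted value is no bound.

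MHC class II genes and their invariant chain had lower values in COLD, Cd74 at -5.40, H2-Eb1 at -5.17, H2-Ab1 at -4.54 and H2-Aa at -4.42. Cd74 was at 1309 and 1094 CPM in the venous cells of C57 RT and at 159 and 0 CPM in COLD, from 15 cells of which 1 gave 74.6% of the counts. A single cell also gave 70.1% of the H2-Eb1, 54.2% of the H2-Ab1 and 52.8% of the H2-Aa counts. In the Adrb1 line it was at 61.8 and 85.5 CPM at RT. With the replicate experiment as a block 6 of the 18 genes were called in COLD, Cd74, H2-Aa, H2-Ab1, Hspa1a, Igfbp4 and Ptprr, and the other 12 were not, with edgeR adjusted p of 0.0519 for H2-Eb1 and Dcn up to 0.787 for Rarres2. Further differences in COLD without the block were Ptprr at 9.40, Casp4 at -2.43, Rcan1 at -2.14, Igfbp4 at -2.44 and Trib1 at -2.98, found in 22 to 32 cells each, and Cp at -2.98, Plac8 at -4.95, Nts at 3.00 and Rarres2 at 9.39 from 1 to 13 cells. The rest were Tagln at -2.09, Hspa1a at 3.57, Mki67 at -10.05, Dcn at 10.97 and Gsn at 10.04. Dcn, Gsn and Rarres2 each came from 1 cell and Mki67 from 2 cells.

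In CL the stromal and adipocyte genes Gsn at 13.16, Dcn at 12.22, Car3 at 12.18, C3 at 9.37, Serpinf1 at 9.20, Dpt at 9.14 and Lpl at 5.26 came from 3 to 6 cells each. Cldn5 stood at 4.00 and Cd74 at -3.85. With the block 13 of the 24 were called in CL, and of the genes named here C3 (edgeR adjusted p = 0.808), Serpinf1 (1), Dpt (1) and Lbp (0.539) were not. Genes found in 30 or more cells were Bgn at -2.55, Lbp at -2.27, Vcam1 at -2.07 and Aplnr at 2.41.

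Among 50204 Lin+ cells, which were kept for their immune lineage markers, 31 passed the venous gate, and Lrg1 was found in 27 of them.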

How the results depend on the processing

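Alternatives for the genes named between venous and other endothelial cells (483 over 24 genes) and between venous and arterial cells (486 over 24 genes) kept direction and call. For the 19 cold genes 147 alternatives kept the call and 167 kept only the direction, and for Car3 10 and 2; none reversed. For results that changed, the cause was not tested except that leaving out the filter or cells changes what is tested. Venous against other endothelial cells gave 2077 calls with no filter and 968 to 1090 when single replicates were left out; venous against arterial gave 849 without cells with other types' markers, 2451 with no filter and 1160 to 1316 without single replicates.

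COLD against RT in C57, with 0 calls, gave 1 without cells of high total, which was Rbp7, 20 with no filter, 19 with all 8 libraries, and 0 to 27 without single replicates, 27 without COLD replicate 1. CL against RT, with 1 call, gave 0 with Ackr1 alone, 0 without cells with other types' markers, 3 without cells of high total, 45 with no filter and 0 to 35 without single replicates, 35 without CL replicate 1. With the replicate experiment as a block both gave 0. COLD against RT in both lines, with 19 calls, gave 5 with the gate lowered by 0.5, 2 with a venous minimum of 4, 0 with Ackr1 alone, 11 without cells with other types' markers, 75 with no filter, 2 with the replicate block and 2 to 30 without single replicates.

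The COLD response that differed between classes, 18 genes, came to 62 with the gate lowered, 11 at the minimum of 4, 5 with Ackr1 alone, 2 without other types' markers, 1 with DESeq2, 11 with no filter, 6 with a replicate block by class and 2 to 19 without single replicates, 2 without COLD replicate 2 and 6 without RT replicate 1. For CL, 24 genes, the counts were 9 with the gate lowered, 9 with Ackr1 alone, 5 without other types' markers, 2 with DESeq2, 13 with the replicate block and 3 to 35 without single replicates, 3 without RT replicate 1 and 7 without CL replicate 2. The COLD share difference was 0.96 with no thinning and -0.657 with the gate lowered as well, and in thinned cells -0.0436 at 1500 counts, 1.47 with Ackr1 alone (1.83 with no thinning) and 0.226 to 1.46 without single replicates. The CL share difference was -0.218 with Ackr1 alone and -0.646 to 1.68 without single replicates, reversed without CL replicate 2. A library held 13 to 34 venous cells, and the part of depth in the counts of calls was not tested.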
